A study of Mus musculus with 8 samples.

Results

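Genes reported as targets of KLF2 (Krüppel-like factor 2) in endothelium, T cells or macrophages were followed in bone marrow-derived macrophages (BMDMs) with and without a floxed Klf2 allele. The 7 genes, S1pr1, Thbd, F3, Plau, Plaur, Itgb7 and Cdkn1a, were named from that background with no threshold on their values, and all 7 were among the 23761 genes listed in the deposited table. In the libraries labelled K2KO, S1pr1 and Thbd were about 1.48-fold and 1.47-fold higher than in LysM, with no overlap between the groups. Of all 10920 tested genes, 18.4% passed the same test and 23.1% had groups that did not overlap. Plau, Plaur, Itgb7 and Cdkn1a did not pass the test, and F3 was too low to be tested.

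KLF2 is a zinc finger transcription factor that binds CACCC boxes and related GC-rich sequences. In endothelium it is induced by laminar shear stress and favours an anticoagulant surface, in part through thrombomodulin, and opposes tissue factor. In T cells it maintains quiescence and the exit from lymphoid tissue through S1P receptor 1, and in myeloid cells it restrains inflammatory activation.

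BMDMs are macrophages grown from marrow cells, here for 6 days in DMEM with medium conditioned by L929 cells, a fibroblast line that secretes the macrophage growth factor M-CSF. They came from mice aged 3 months, of genotype LysM Cre/Cre (control, LysM, 4 libraries) or LysM Cre/Cre KLF2 flox/flox (K2KO, 4 libraries), and library names mark both groups as vehicle. All mice thus carry Cre at the lysozyme M gene (Lyz2), a site used to direct recombination to myeloid cells. The columns of the table give the genotype but not the mouse, and the libraries are called LysM0 to LysM3 and K2KO0 to K2KO3.

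Levels are in FPKM, which counts sequenced fragments relative to transcript length and to the mapped total of the library. How many reads lie behind a level is not known, so no counting error is given. From the steps between low values, sequencing depth was 0.9 to 1.39 times that of LysM0. Gapdh, a glycolytic enzyme of every cell, was listed at 0 to 0.4999 FPKM while Actb was at 1962 to 2949 FPKM, and a listed level of 0 is therefore given only as listed. Actb was at 2625 to 2949 FPKM in LysM and 1962 to 2449 FPKM in the libraries labelled K2KO, with separate groups. Summed FPKM over all listed genes was 497253 to 551608 in LysM and 448235 to 501965 in the libraries labelled K2KO, with overlap. The cause of these differences was not tested, and fits with other scalings are given below. LysM3 stood apart: the root mean square log2 difference between it and each other library was 0.681 to 0.852, against 0.530 to 0.692 between all other pairs. Calls of named genes that were lost without it are stated, for the pathway genes as a group.

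The deposited positions follow mm10, and promoter sequence from RefSeq on the matching assembly, GRCm38.p6, was found for F3, Plaur, Itgb7 and Cdkn1a, or 4 of the 7 genes. The windows of 3 of them, each 300 bases around the start of the gene, are shown with KLF2 binding letters marked. The windows of Cdkn1a hold such letters too and are given by count only. Capitals mark the letters CACCC or CCNCNCCC on either strand (GGGTG or GGGNGNGG as written on the other strand), and the motifs can overlap each other and themselves. The windows are F3 at chr3:121723287-121723586 on the plus strand, Plaur at chr7:24462233-24462532 on the plus strand and Itgb7 at chr15:102231886-102232185 on the minus strand, each printed 5′ to 3′ along its gene.
F3: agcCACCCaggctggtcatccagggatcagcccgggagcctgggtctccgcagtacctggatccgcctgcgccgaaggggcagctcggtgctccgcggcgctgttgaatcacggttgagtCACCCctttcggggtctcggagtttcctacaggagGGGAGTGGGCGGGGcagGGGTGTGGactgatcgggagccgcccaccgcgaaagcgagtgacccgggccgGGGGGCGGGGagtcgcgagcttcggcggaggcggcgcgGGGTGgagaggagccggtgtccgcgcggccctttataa
Plaur: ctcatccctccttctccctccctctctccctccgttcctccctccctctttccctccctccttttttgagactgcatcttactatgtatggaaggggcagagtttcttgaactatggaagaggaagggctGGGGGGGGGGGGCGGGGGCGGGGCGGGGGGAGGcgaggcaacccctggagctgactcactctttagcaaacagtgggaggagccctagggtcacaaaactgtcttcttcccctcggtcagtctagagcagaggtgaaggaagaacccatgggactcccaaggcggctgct
Itgb7: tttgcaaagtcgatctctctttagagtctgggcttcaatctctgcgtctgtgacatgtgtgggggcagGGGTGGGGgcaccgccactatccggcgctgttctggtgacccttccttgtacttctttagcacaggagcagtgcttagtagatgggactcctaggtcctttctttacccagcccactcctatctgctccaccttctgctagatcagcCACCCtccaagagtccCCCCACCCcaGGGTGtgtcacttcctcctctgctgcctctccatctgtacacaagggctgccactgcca
The F3 window holds 4 matches to CACCC and 5 to CCNCNCCC. The Itgb7 window holds 4 and 2. The Plaur window holds no CACCC and 11 matches to CCNCNCCC, which lie in a single run rich in G. The window at the upstream start of Cdkn1a holds 3 and 1, and that at its downstream start holds none and 4. Of all 32851 promoter windows of this length, 57.5% hold CACCC and 49.5% hold CCNCNCCC, so a match is common and is a description of letters, not of binding.

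Klf2 itself was examined first, since it checks the labels. Its expression was 44.1, 52.9, 64.7 and 72.8 FPKM in LysM0 to LysM3 and 45.5, 41.6, 59.2 and 59.3 FPKM in K2KO0 to K2KO3. The groups overlapped, and the lowest value of the LysM group lay below 3 of the 4 values of the other group. The log2 fold change was -0.18 (SE 0.17, 95% interval -0.57 to 0.21, limma adjusted p = 0.460), and it ran from -0.31 (without LysM0) to -0.07 (without LysM3) when 1 library was left out. With a correction for GC and length (described with the alternatives) it was 0.04, on the other side of 0. Gene-level FPKM cannot tell the floxed exons from the others. Since the level of Klf2 did not fall beyond the spread, the samples without floxed alleles are called LysM and the others are referred to by their label.

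The macrophage label was checked against markers of macrophages and of cells in which KLF2 targets are best known. Cd68, a lysosomal membrane protein of macrophages, was at 1834 ± 128.8 FPKM in LysM and 1779 ± 103.7 FPKM in the libraries labelled K2KO (SD, n = 4 each). All 7 macrophage markers passed the filter, and Lyz2, the gene that carries Cre, and Mertk, a receptor for dying cells, changed. Lyz2 was at 18.6 ± 2.88 FPKM in LysM and 13.2 ± 1.73 FPKM in the libraries labelled K2KO (SD, n = 4 each), a log2 fold change of -0.49 (SE 0.12, limma adjusted p = 0.0260). Mertk was higher there by 0.36 (SE 0.09, limma adjusted p = 0.0285). Without 1 library, Lyz2 was called in 4 of 8 fits and Mertk in 2, and without LysM3 neither was (limma adjusted p = 0.0736 and 0.0807). With values corrected for GC and length Mertk lost its call (log2 fold change 0.28, limma adjusted p = 0.0752).

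Markers of endothelium were low. Of 8 such genes, Vwf (2.90 FPKM on average, the most abundant) and Kdr passed the filter, neither was called, and each of the other 6 had a mean of at most 0.297 FPKM. None was listed at 0 in all libraries. Their summed FPKM was 5.13, 5.44, 3.63 and 4.83 in LysM0 to LysM3 and 4.985, 6.18, 5.87 and 5.65 in K2KO0 to K2KO3, and the groups overlapped. None of 8 T cell markers passed the filter, and the most abundant, Lck, had a mean of 0.263 FPKM.

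Of the B cell markers, Cd22 moved with the groups. Of 6 genes, 2 were tested and 1 was called, Cd22, a sialic acid-binding receptor and the most abundant of them (7.11 FPKM on average), which was higher in the libraries labelled K2KO by 0.36 (SE 0.07, limma adjusted p = 0.0148). The summed FPKM of the list was 7.92, 9.38, 9.16 and 11.2 in LysM0 to LysM3 and 11.25, 13.3, 11.6 and 13.3 in K2KO0 to K2KO3. Every library labelled K2KO was above every LysM library, though LysM3 and K2KO0 were close. Without Cd22 the other 5 markers summed to 1.53, 2.79, 3.56 and 4.88 FPKM in LysM0 to LysM3 and 3.79, 5.44, 3.55 and 4.66 FPKM in K2KO0 to K2KO3, and the groups overlapped. The part of these cells in the results below was not tested. Cd79b, a subunit of the B cell receptor, was not called, at 2.13 FPKM in LysM and 2.81 FPKM in the other group, and Cd79a, Ms4a1 and Pax5 had means of at most 0.834 FPKM. None of the 6 was listed at 0 in all libraries.

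Other lists were low or mixed. Of 8 mast cell and basophil markers none passed the filter (most abundant Hdc, 0.306 FPKM; Tpsb2 listed at 0 in all libraries), and of 8 fibroblast markers none did (most abundant Dcn, 0.481 FPKM). Of 8 dendritic cell markers 3 were tested and none was called (most abundant Batf3, 6.01 FPKM). Of 9 neutrophil markers 8 were tested, and Camp, an antimicrobial peptide, fell by 1.14 on the log2 scale (SE 0.24, limma adjusted p = 0.0178), while the summed FPKM of the list was 254.3 ± 57.5 in LysM and 254.1 ± 61.3 in the libraries labelled K2KO (SD, n = 4 each). Of 6 megakaryocyte and platelet markers 3 were tested, with a median log2 fold change of 0.53. Ppbp, a platelet chemokine, rose by 1.07 (SE 0.27, limma adjusted p = 0.0291), with overlap between the groups. Of the markers of these lists under the filter, only Kit, Siglech and Gp9 had separate groups. Each was higher in the libraries labelled K2KO (0.123 and 0.333, 0.205 and 0.463, and 0.281 and 0.753 FPKM in LysM and K2KO). Without LysM3 neither Camp nor Ppbp was called (limma adjusted p = 0.0554 and 0.0755), and with values corrected for GC and length Ppbp was not (log2 fold change 1.00, limma adjusted p = 0.0637). In a culture sequenced as a whole, fewer cells of a type and less RNA per cell cannot be told apart.

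The comparison asked which of these targets differed between genotypes in macrophages. Values were compared as log2(FPKM + 0.1) with limma across the 10920 genes with a mean of at least 1 FPKM, and a gene was called when it changed by more than 0.26 on the log2 scale in either direction with a Benjamini-Hochberg adjusted p under 0.05. Of all tested genes 18.4% were called, 9.84% as higher and 8.61% as lower in the libraries labelled K2KO. The number called fell from 2014 to 1098 with values corrected for GC and length. It was also far lower without LysM3, as given with the alternatives. Of the 7 target genes 6 were tested and 2 were called, both higher. Both thus rose in the libraries labelled K2KO, while the background above has KLF2 acting through both in endothelium and T cells. The reason was not tested, and Klf2 itself did not differ beyond the spread. The median log2 fold change was 0.24 over the 6 tested targets and 0.01 over all tested genes, of which the 5th to 95th percentile ran from -0.46 to 0.51. With upper quartile scaling of the libraries, 64.1% of all calls were higher in place of 53.3%, and with values corrected for GC and length 44.2% were.

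**Figure D1:**
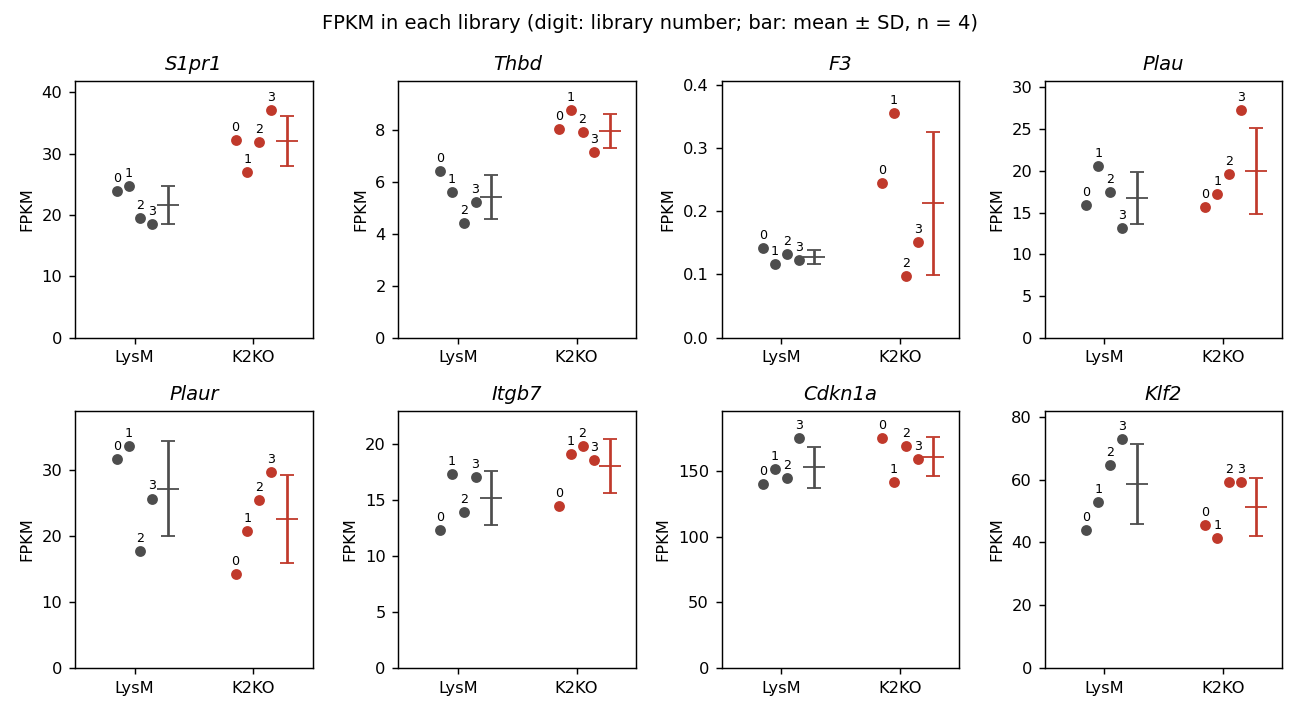
FPKM of the 7 target genes and Klf2 in each of the 8 libraries (vertical axis, from 0; digits give the library number; bars show the mean ± SD, n = 4). The groups are separate for S1pr1 and Thbd and overlap for the other 5 target genes and for Klf2.

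S1pr1 encodes S1P receptor 1, the G protein-coupled receptor by which lymphocytes follow sphingosine 1-phosphate out of tissue. It lies on chr3:115710433-115715072 on the minus strand and has 2 exons. Its level was 23.9, 24.7, 19.4 and 18.5 FPKM in LysM0 to LysM3 and 32.2, 27.1, 31.9 and 37.1 FPKM in K2KO0 to K2KO3. K2KO3 was the highest and LysM3 the lowest, and the lowest library labelled K2KO was above the highest LysM library. The means were 21.6 ± 3.13 FPKM (SD, n = 4) and 32.1 ± 4.11 FPKM (SD, n = 4). The log2 fold change was 0.57 (SE 0.12, 95% interval 0.29 to 0.84, limma adjusted p = 0.0178), with an exact two-sided permutation p = 0.0286, the smallest that 4 against 4 libraries can give. Without LysM3 it was 0.50 (limma adjusted p = 0.0538) and without K2KO2 0.57 (limma adjusted p = 0.0513), so the call was lost in both. It was also lost with no filter on low values (limma adjusted p = 0.0759) and with ordinary least squares (adjusted p = 0.0587).

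Thbd encodes thrombomodulin, the cell surface receptor that turns thrombin into an activator of protein C. It is a gene of 1 exon on chr2:148404466-148408188 on the minus strand. Its level was 6.45, 5.60, 4.41 and 5.23 FPKM in LysM0 to LysM3 and 8.05, 8.78, 7.93 and 7.17 FPKM in K2KO0 to K2KO3. All values of the libraries labelled K2KO lay above all LysM values, and the nearest pair was K2KO3 and LysM0. The means were 5.42 ± 0.844 FPKM (SD, n = 4) and 7.98 ± 0.659 FPKM (SD, n = 4), and the log2 fold change was 0.56 (SE 0.11, 95% interval 0.31 to 0.81, limma adjusted p = 0.0149; exact two-sided permutation p = 0.0286). Thbd was called in all 8 fits that left out 1 library, with an adjusted p of 0.0498 without LysM3. Its call was lost with no filter on low values (limma adjusted p = 0.0646) and with ordinary least squares (adjusted p = 0.0514). S1pr1 and Thbd were the 2 of the 6 tested targets whose groups did not overlap. The same held for 23.1% of all tested genes: in 12.9% the libraries labelled K2KO lay above LysM and in 10.2% below.

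F3 encodes tissue factor, which starts the extrinsic pathway of coagulation, on chr3:121723537-121735048 on the plus strand. It was at 0.1415, 0.116, 0.132 and 0.122 FPKM in LysM0 to LysM3 and 0.244, 0.356, 0.09685 and 0.152 FPKM in K2KO0 to K2KO3. The values of the libraries labelled K2KO spread from below every LysM library to above all of them. The means were 0.128 ± 0.0111 FPKM (SD, n = 4) and 0.212 ± 0.113 FPKM (SD, n = 4), under the filter, and the exact two-sided permutation test gave p = 0.286. When genes with a mean of at least 0.1 FPKM were tested, the limma adjusted p was 0.416.

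Plau encodes urokinase, a protease that activates plasminogen and thereby dissolves fibrin, on chr14:20836660-20843385 on the plus strand. Its level was 15.9, 20.6, 17.5 and 13.1 FPKM in LysM0 to LysM3 and 15.7, 17.2, 19.6 and 27.3 FPKM in K2KO0 to K2KO3. The groups overlapped, with the highest value in K2KO3 and the lowest in LysM3. The log2 fold change was 0.23 (SE 0.18, 95% interval -0.18 to 0.64, limma adjusted p = 0.372).

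Plaur encodes the urokinase receptor, which holds the protease on the cell surface, on chr7:24462484-24475968 on the plus strand. Its level was 31.6, 33.6, 17.6 and 25.65 FPKM in LysM0 to LysM3 and 14.2, 20.8, 25.4 and 29.7 FPKM in K2KO0 to K2KO3. It was the most variable of the tested targets within the groups, and the ranges overlapped over most of their length. The log2 fold change was -0.28 (SE 0.25, 95% interval -0.85 to 0.30, limma adjusted p = 0.447).

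The balance of ligand and receptor was taken as the ratio of Plau to Plaur in FPKM, a scale that corrects for length. The ratio was 0.504, 0.613, 0.992 and 0.512 in LysM0 to LysM3 and 1.11, 0.8295, 0.770 and 0.9175 in K2KO0 to K2KO3. LysM2 lay among the libraries labelled K2KO, while the other LysM libraries lay below them. On the log2 scale the means were -0.66 ± 0.45 (SD, n = 4) and -0.16 ± 0.23 (SD, n = 4), a difference of 0.51 that the exact two-sided permutation test over libraries did not separate from the spread (p = 0.114).

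**Figure D2:**
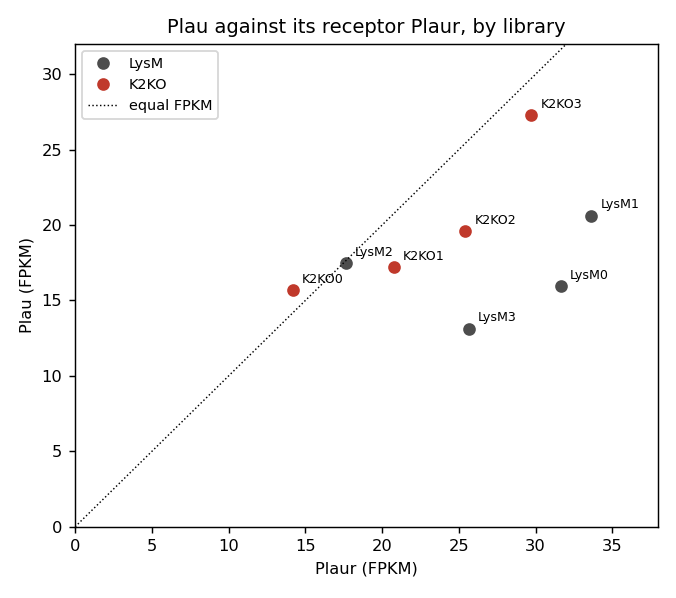
Plau (vertical axis, FPKM) against Plaur (horizontal axis, FPKM) in the 8 libraries, with a dotted line where both levels are equal. K2KO0 lies above the line with a ratio of 1.11, LysM2 lies on it at 0.992, and the other 6 libraries lie below it.

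Itgb7 encodes the beta7 integrin subunit, which pairs with alpha4 or alphaE and guides lymphocytes to the gut, on chr15:102215995-102231944 on the minus strand. Its level was 12.3, 17.3, 13.9 and 17.0 FPKM in LysM0 to LysM3 and 14.4, 19.1, 19.8 and 18.6 FPKM in K2KO0 to K2KO3. Of the libraries labelled K2KO only K2KO0 fell within the LysM range. The log2 fold change was 0.25 (SE 0.13, 95% interval -0.05 to 0.55, limma adjusted p = 0.197). Corrected for GC and length it was 0.37 (limma adjusted p = 0.0892), again not called.

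Cdkn1a encodes p21, an inhibitor of cyclin-dependent kinases that holds cells in G1, on chr17:29090976-29100727 on the plus strand. It was the most abundant of the targets, at 139.9, 151, 145 and 175 FPKM in LysM0 to LysM3 and 175, 141, 169 and 159 FPKM in K2KO0 to K2KO3. The groups overlapped almost completely, and LysM3 and K2KO0 were the highest. The log2 fold change was 0.08 (SE 0.09, 95% interval -0.13 to 0.29, limma adjusted p = 0.574), the narrowest interval of the 6. It was 0.23 with quantile normalization (limma adjusted p = 0.114) and 0.18 with the correction for GC and length (limma adjusted p = 0.184), not called in either. Exons of Cdkn1a overlap an antisense transcript of uncertain coding status, which is not listed. The authors' methods name a stranded library kit, but whether strand was used in counting is not given in the sources used here.

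**Figure D3:**
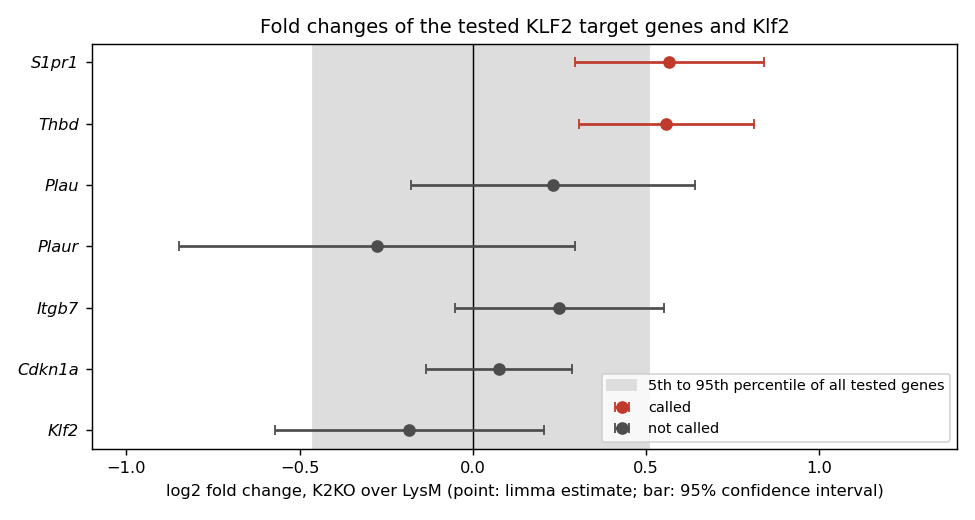
Log2 fold changes of the 6 tested target genes and Klf2 (horizontal axis, libraries labelled K2KO over LysM; points are limma estimates, bars 95% intervals) over a grey band from the 5th to the 95th percentile of all tested genes. S1pr1 and Thbd lie outside the band of -0.46 to 0.51, and their intervals do not reach 0.

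The order of the targets by FPKM was the same in both groups apart from S1pr1 and Plaur, which changed places. Cdkn1a was highest, at 152.7 ± 15.7 FPKM in LysM and 160.9 ± 14.8 FPKM in the libraries labelled K2KO (SD, n = 4). In LysM, Plaur (27.1 ± 7.19 FPKM), S1pr1 (21.6 ± 3.13 FPKM), Plau (16.8 ± 3.12 FPKM) and Itgb7 (15.1 ± 2.44 FPKM) followed (SD, n = 4), and the libraries of each overlapped with those of its neighbour in this order. In the libraries labelled K2KO, S1pr1 (32.1 ± 4.11 FPKM) stood before Plaur (22.5 ± 6.65 FPKM), Plau (19.9 ± 5.13 FPKM) and Itgb7 (18.0 ± 2.42 FPKM), again with overlap between neighbours (SD, n = 4). Thbd and then F3 came last in both groups, each apart from its neighbours.

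The tested genes whose profile over the 8 libraries lay nearest to those of the called targets were listed as a description, with the root mean square log2 difference as measure. For S1pr1 they were Tnf, the inflammatory cytokine (0.111), and Mapkapk3, a kinase downstream of p38 (0.117), against a median of 0.361 over all tested genes. The log2 fold changes were 0.44 for Tnf and 0.49 for Mapkapk3. For Thbd they were Lrp12, a lipoprotein receptor family member (0.0494), and Golim4, a Golgi membrane protein (0.0524), against a median of 0.3465. Lrp12 and Golim4 each had a log2 fold change of 0.60. Since these genes were picked for a profile close to that of a called gene, their difference between the groups follows from the choice and is given without a test.

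Around the targets, 7 lists with 124 further genes of their pathways were examined, of which 74 were tested and 16 were called. That is 21.6%, against 18.4% of all tested genes. By list the share called was 40% for sphingosine 1-phosphate, 25% for plasminogen and for trafficking, and 22.2% for coagulation. It was 13.3% for the cell cycle list, 13.6% for p53 and 50% for the endothelial targets, of which only 2 were tested. Without LysM3, 3 of the 16 stayed called, Vcam1, Ccnd3 and Dcxr, and the limma adjusted p of the others ran from 0.0508 (Selplg) to 0.114 (Plpp3). Calls over all tested genes fell as well, to their lowest among the fits that left out a library. The loss is thus not particular to these lists. The sphingosine 1-phosphate list, around S1pr1, held 10 tested genes of 19, of which 4 were called, all higher in the libraries labelled K2KO, with a median of 0.20. Plpp3, which dephosphorylates sphingosine 1-phosphate outside the cell, rose from 2.01 ± 0.75 to 3.73 ± 1.06 FPKM (SD, n = 4; log2 fold change 0.89, SE 0.26, limma adjusted p = 0.0434). The ceramidases Asah2 and Asah1, which release sphingosine from ceramide, rose by 0.53 (SE 0.14, limma adjusted p = 0.0319) and 0.40 (SE 0.08, limma adjusted p = 0.0149). S1pr2, a second receptor of the lipid, rose by 0.34 (SE 0.10, limma adjusted p = 0.0394).

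Asah1 was at 93.0, 86.6, 88.5 and 84.1 FPKM in LysM0 to LysM3 and 116.9, 127.7, 121.3 and 100.5 FPKM in K2KO0 to K2KO3. Its groups were separate, as were those of S1pr2, Plpp3 and Asah2, and of Sgpl1, which was not called in the fit as reported. Sgpl1, the lyase that degrades sphingosine 1-phosphate and the most abundant gene of the list (163.7 FPKM on average), had a log2 fold change of 0.19 (limma adjusted p = 0.0587), which was 0.35 and called with quantile normalization (limma adjusted p = 0.0230) and 0.12 with the correction for GC and length. With values corrected for GC and length, Asah1 stayed called at 0.29 (limma adjusted p = 0.0376). The other 3 did not, with S1pr2 at 0.26 (limma adjusted p = 0.0772), Plpp3 at 0.88 (limma adjusted p = 0.0654) and Asah2 at 0.31 (limma adjusted p = 0.123). With 1 library left out, Asah1 was called in 7 of 8 fits and S1pr2, Plpp3 and Asah2 in 2 each.

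Of 17 genes of coagulation and the protein C pathway, around Thbd and F3, 9 were tested and 2 were called, both higher in the libraries labelled K2KO, with a median of 0.15. Thbs1, thrombospondin 1 and the most abundant of them, was at 37.6, 58.7, 30.9 and 45.3 FPKM in LysM0 to LysM3 and 103.8, 50.05, 92.5 and 86.7 FPKM in K2KO0 to K2KO3. K2KO1 fell below LysM1, and the other 3 libraries labelled K2KO lay above all LysM libraries (log2 fold change 0.94, SE 0.25, limma adjusted p = 0.0320). Tfpi, the inhibitor of the tissue factor complex, rose from 6.32 ± 0.520 to 8.54 ± 1.08 FPKM (SD, n = 4; log2 fold change 0.42, SE 0.10, limma adjusted p = 0.0229), with separate groups. With values corrected for GC and length neither was called, Thbs1 at 0.84 (limma adjusted p = 0.0658) and Tfpi at 0.22 (limma adjusted p = 0.130), and each was called in 3 of the 8 fits without 1 library.

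In the plasminogen list, around Plau and Plaur, 8 of 15 listed genes were tested and 2 fell, with a median of -0.07. They are Anxa2 and S100a10, the partners of a plasminogen-binding complex at the cell surface. Anxa2, the most abundant of the list, fell from 571.8 ± 43.7 to 405.0 ± 52.3 FPKM (SD, n = 4; log2 fold change -0.50, SE 0.11, limma adjusted p = 0.0172). S100a10 fell from 244.7 ± 25.4 to 193.1 ± 14.5 FPKM (SD, n = 4; log2 fold change -0.34, SE 0.09, limma adjusted p = 0.0329). Both had all libraries labelled K2KO below all LysM libraries, and with values corrected for GC and length Anxa2 was called at -0.45 and S100a10, at -0.25, was not. Without 1 library, Anxa2 was called in 6 of 8 fits and S100a10 in 2. Quantile normalization gave Anxa2 -0.32, still called, and S100a10 -0.14, not called (limma adjusted p = 0.186).

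Around Itgb7, 8 of 13 listed trafficking and adhesion genes were tested, and 1 rose and 1 fell, with a median of 0.01. Vcam1, a ligand of the alpha4 integrins, was at 0.650, 1.25, 0.738 and 0.597 FPKM in LysM0 to LysM3 and 2.23, 3.38, 2.22 and 1.635 FPKM in K2KO0 to K2KO3 (log2 fold change 1.45, SE 0.27, limma adjusted p = 0.0126). Selplg, the P-selectin ligand of leukocytes, fell from 219.8 ± 17.8 to 165.5 ± 12.7 FPKM (SD, n = 4; log2 fold change -0.41, SE 0.08, limma adjusted p = 0.0147) and was the most abundant of the list. The groups were separate for both, and without 1 library Vcam1 was called in 8 of 8 fits and Selplg in 7. When the libraries were quantile normalized both lost their call, Vcam1 at 1.88 (limma adjusted p = 0.0724) and Selplg at -0.24, under the fold threshold (limma adjusted p = 0.0353).

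Around Cdkn1a, 15 of 20 inhibitors of cyclin-dependent kinases, cyclins and partners were tested, and 2 were lower in the libraries labelled K2KO, with a median of 0.01. Ccnd3, cyclin D3, was at 30.7, 32.1, 36.7 and 37.5 FPKM in LysM0 to LysM3 and 23.5, 23.6, 21.7 and 26.5 FPKM in K2KO0 to K2KO3, with separate groups (log2 fold change -0.52, SE 0.09, limma adjusted p = 0.0109). Cdkn2d, the inhibitor p19, fell by 0.30 on the log2 scale (SE 0.08, limma adjusted p = 0.0342). Pcna, the replication clamp and most abundant gene of the list, had a log2 fold change of 0.21 (limma adjusted p = 0.283). Without 1 library, Ccnd3 was called in 8 of 8 fits and Cdkn2d in 2. With values corrected for GC and length Ccnd3 was called at -0.48 and Cdkn2d, at -0.13, was not (limma adjusted p = 0.208).

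Cdkn1a is also a target of p53, and 22 of 24 genes of that list were tested. None was called higher and 3 were called lower, while the median of the list was 0.07. The share called was 13.6%, against 18.4% of all tested genes, of which 8.61% were lower. With upper quartile scaling 1 gene of the list was called higher and 3 lower. Dcxr, a carbonyl reductase, fell by 0.52 (SE 0.09, limma adjusted p = 0.0109), Phlda3, an inhibitor of Akt, by 0.56 (SE 0.16, limma adjusted p = 0.0416) and Bbc3, the pro-apoptotic PUMA, by 0.40 (SE 0.08, limma adjusted p = 0.0166). Bax, the most abundant, had a log2 fold change of -0.29 (limma adjusted p = 0.0602), which was -0.01 with the correction for GC and length (limma adjusted p = 0.897) and -0.11 with quantile normalization. With values corrected for GC and length Dcxr was called at -0.27, close to the threshold (limma adjusted p = 0.0484), and Phlda3, at -0.30, and Bbc3, at -0.12, were not (limma adjusted p = 0.157 and 0.269). Without 1 library, Dcxr was called in 8 of 8 fits, Bbc3 in 6 and Phlda3 in 2.

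Of 14 further targets known from endothelium, among them Nos3, Edn1 and Tek, 12 were under the filter, and Sele and Gja4 were listed at 0 in all libraries. Angpt2 was just under the filter (0.997 FPKM on average). Its groups were separate, at 0.827 FPKM in LysM and 1.17 FPKM in the libraries labelled K2KO. Calcrl, a receptor for adrenomedullin, was the called gene of the 2 tested and rose from 1.65 ± 0.186 to 2.45 ± 0.308 FPKM (SD, n = 4; log2 fold change 0.54, SE 0.13, limma adjusted p = 0.0238), with separate groups, and was called in 3 of the 8 fits without 1 library. Corrected for GC and length, its log2 fold change was 0.29 and not called (limma adjusted p = 0.0962). The other, Kdr, a receptor of vascular endothelial growth factor, was at 1.59 FPKM in LysM and 2.12 FPKM in the libraries labelled K2KO (limma adjusted p = 0.142).

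**Figure D4:**
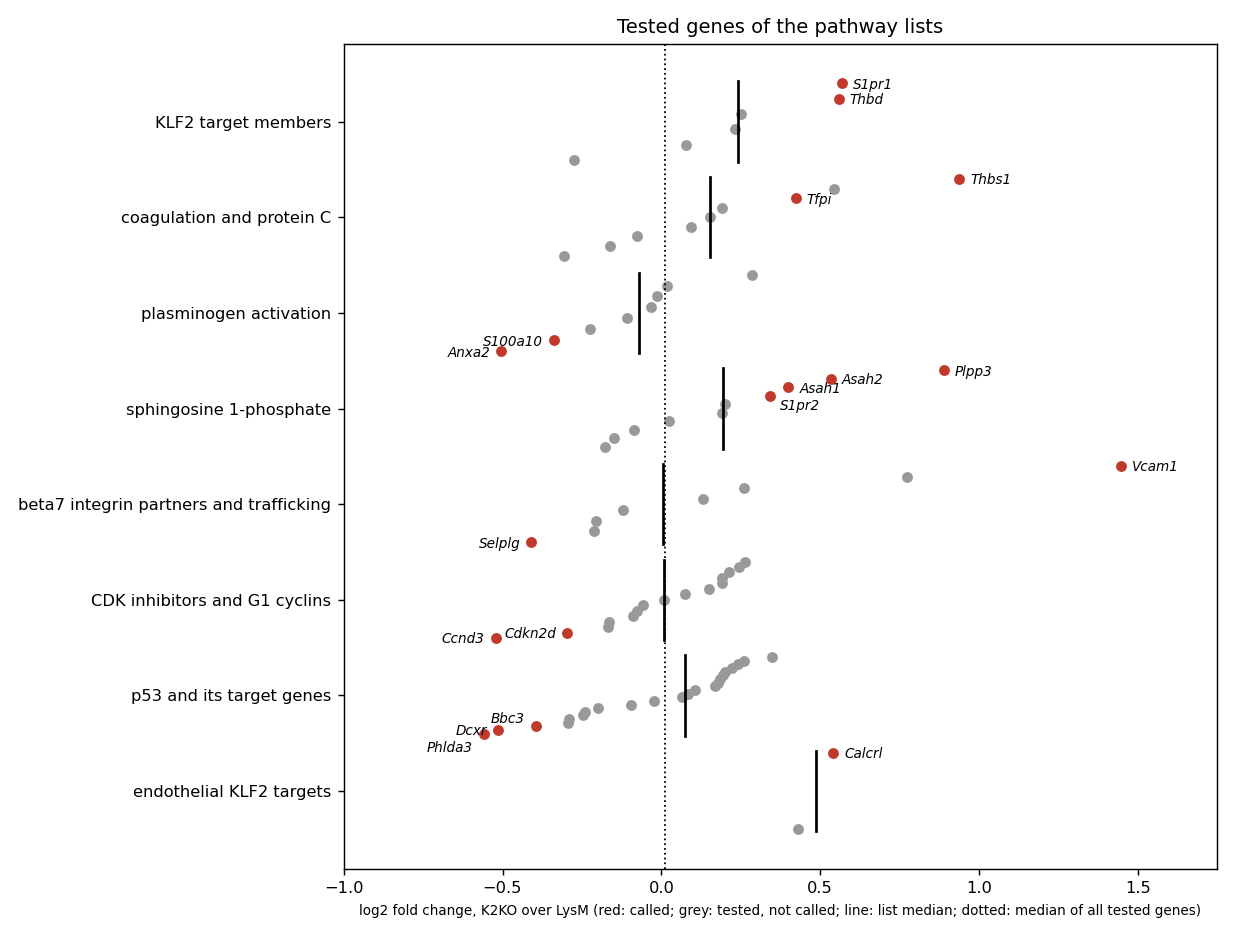
Log2 fold changes (horizontal axis, libraries labelled K2KO over LysM) of each tested gene of the target genes and the 7 pathway lists; red points are called, grey points are not, black bars are list medians and the dotted line is the median of all tested genes, 0.01. Called genes of the sphingosine 1-phosphate and coagulation lists lie to the right, and those of the plasminogen, cell cycle and p53 lists lie to the left.

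**Figure D5:**
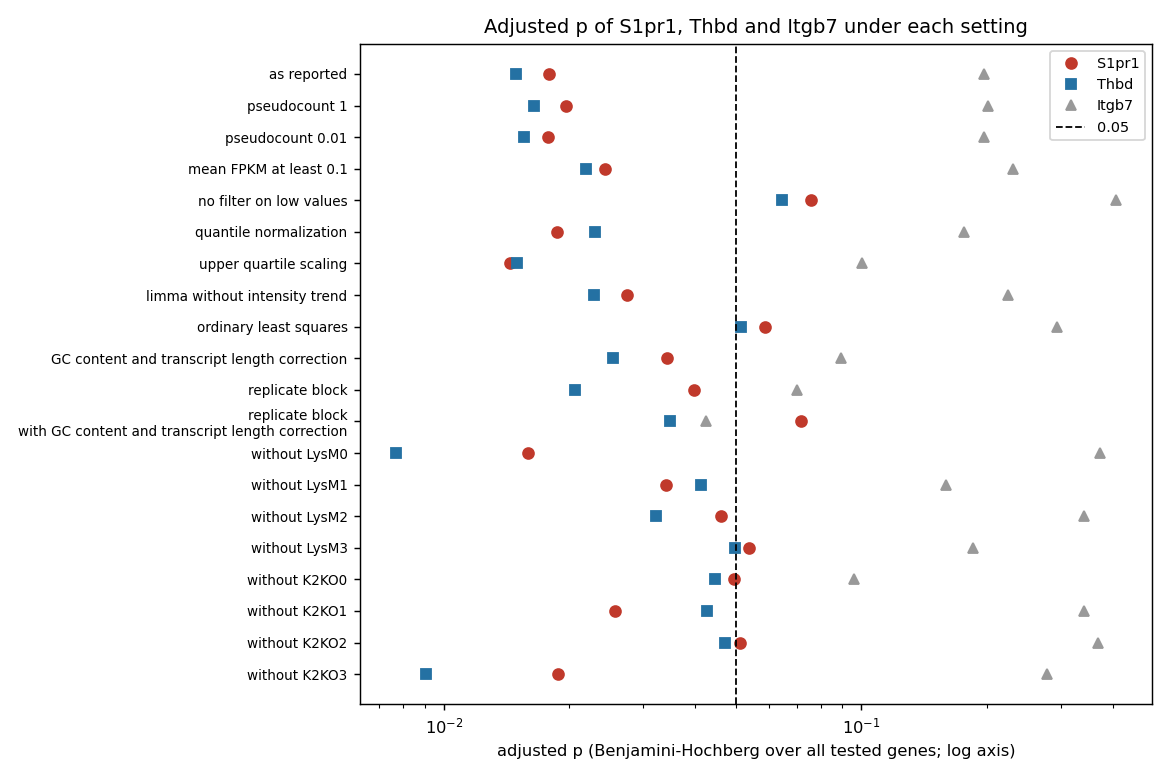
Benjamini-Hochberg adjusted p (horizontal log axis; from limma, or from ordinary least squares where named) of S1pr1, Thbd and Itgb7 in the fit as reported and under each alternative setting, with the threshold of 0.05 dashed. Thbd lies left of the line in every setting drawn other than no filter and ordinary least squares, and S1pr1 lies right of it in 3 further settings.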

How the data were processed

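RNA-sequencing of 4 cultures labelled LysM and 4 labelled K2KO was used. The authors computed FPKM with Cufflinks, and their deposited table holds FPKM with no read counts. Their methods name TopHat2 as aligner, the submitters' processing notes name STAR, Cufflinks and Cuffdiff, and both name mm10. The methods and the labels also name different RNA kits. All 8 columns were mapped to a genotype and none to a mouse, so p-values measure the spread between these libraries.

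FPKM were compared as log2(FPKM + 0.1) with limma 3.58.1 (intensity trend) in R 4.3.3, for genes with a mean of at least 1, with calls at a log2 change beyond 0.26 in size and an adjusted p under 0.05. No covariate was used. The exact permutation test for a single value was two-sided. The procedure was tested on simulated data, and no outcome of that is given or relied on here. GENCODE M21 gave positions and RefSeq the promoters.

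The genes named were the 7 targets, Klf2, up to 4 called genes and the most abundant tested gene of each list, the 2 nearest profiles of each called target, and cell type markers, of which 1 is not reported here by itself. The targets and lists were chosen with earlier results of these data known. Alternatives were other pseudocounts, filters, scalings, tests and thresholds, a loess fit per library against GC content and longest transcript length (the correction for GC and length), a replicate block, and each library left out.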

Additional observations from a re-analysis of the deposited data

Results flagged for a closer look

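Among the 36 named genes, 3 of 72 groups of 4 libraries held a value far from the other 3 by Dixon's test at the 95% level. Chance alone gives about 1 in 20, or 3.6 of 72. Plpp3 was at 5.31 FPKM in K2KO1, against 3.11 to 3.38 FPKM in the other libraries labelled K2KO. Asah2 was at 1.48 FPKM in K2KO3, against 1.99 to 2.07 FPKM in the others. Mapkapk3 was at 23.2 FPKM in K2KO1, against 25.3 to 25.7 FPKM in the others. No value of S1pr1, Thbd, F3, Plau, Plaur, Itgb7, Cdkn1a or Klf2 stood out in this way.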

How the results depend on the processing

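Of the 10920 tested genes 2014 were called. The number was 483 with no filter on low values, 746 with ordinary least squares, 110 at an absolute log2 fold change over 1, 1098 with the correction for GC and length, and 868 with that correction and a replicate block. It ran from 543 (without LysM3) to 2863 (without K2KO3) when 1 library was left out. Of the target genes, 0 were called with no filter, with ordinary least squares and at a log2 fold change over 1, and 1 to 2 when a library was left out. S1pr1 kept its log2 fold change of 0.57 but not its call with no filter (limma adjusted p = 0.0759), with ordinary least squares (adjusted p = 0.0587) and at a log2 fold change over 1, and it was 0.54 (limma adjusted p = 0.0718) with the block and the correction together. Thbd kept 0.56 but not its call in the first 3 of these settings (adjusted p = 0.0646 and 0.0514 in the first 2). With a library left out, S1pr1 ran from 0.49 to 0.65 and Thbd from 0.47 to 0.64. With the correction alone both stayed called (limma adjusted p = 0.0343 and 0.0255). Itgb7 reached 0.37 (limma adjusted p = 0.0424) with the block and the correction, but was not called with either alone (limma adjusted p = 0.0700 and 0.0892). Klf2 turned to 0.0392 with the correction, with and without the block (limma adjusted p = 0.775 and 0.894). F3, Plau, Plaur, Cdkn1a and the ratio of Plau to Plaur kept their direction and stayed uncalled in every alternative that gave them a value, but their size moved. F3 was 0.0992 with a pseudocount of 1. With a library left out, Klf2 ran from -0.31 to -0.07, Itgb7 from 0.16 to 0.35, F3 from 0.18 to 0.58, Plau from 0.07 (without K2KO3) to 0.34, Plaur from -0.47 (without LysM2) to -0.07 (without K2KO0) and Cdkn1a from 0.03 to 0.14. Of the 74 pathway genes tested, 16 were called, against 2 with no filter, 6 with ordinary least squares, 1 at a log2 fold change over 1, 6 with the correction and 6 with the block and the correction, and from 3 (without LysM3) to 20 (without K2KO3) with a library left out. For 28 other named genes none of 560 fits reversed a direction, 164 lost a call and 6 gained one, for Tnf, Bax and Sgpl1. The cause of these changes was not tested.

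Libraries of the same number did not deviate together: the correlations of same-numbered deviations were -0.07, 0.02, 0.07 and -0.06. Between libraries of unlike number they ran from -0.135 to 0.184. Column numbers do not give the mouse, so these values cannot decide whether the samples were paired. A replicate block alone gave 2057 called genes, with S1pr1 and Thbd among them (limma adjusted p = 0.0398 and 0.0207). FPKM of low genes such as F3 rest on an unknown number of reads, so a difference there may not be detectable at this depth.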
